A study of Mus musculus with 36 samples.

Results

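The genes described here are proinflammatory cytokine and prostaglandin genes, 10 of the 18193 genes that a probe set of their own represented on the arrays. They are the interleukin-1 genes Il1a, Il1b and Il1rn, the cytokine genes Il6, Tnf, Il12b and Il18, the inflammasome sensor Nlrp3, the prostaglandin synthase Ptgs2 and the prostaglandin E receptor Ptger3. A probe set was taken where its platform annotation gave the gene's symbol alone, and the one with the highest mean over the 36 arrays stood for the gene. The samples were 6 populations sorted from the digested thymi of male wild-type C57BL/6J mice aged 1, 3 or 6 months, with 2 arrays for each of the 18 groups of population and age. The populations were dendritic cells positive for Sirpa (Sirpa+ DC) and negative for it (Sirpa- DC), fibroblasts, medullary epithelial cells high in CD80 and MHC class II (mTEChi), medullary epithelial cells low in both (mTEClo) and cortical epithelial cells (cTEC). None of the labels names a treatment, an introduced allele or a transgene. Which arrays came from the same mouse, and whether mice were pooled, is not given in the sources used here, so p-values measure the spread between these arrays.

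Values are the deposited log2 signals of the arrays, on which a difference of 1 is a factor of 2. Arrays had medians between 5.61 and 5.75, and the median over all arrays and probe sets, 5.66, served as a mark of dim signal. All 10 genes lay above that mark in at least 2 arrays and were tested among 14495 genes that did so. A population difference was called at an adjusted p under 0.05 in limma, with Benjamini-Hochberg adjustment over all genes tested, and at least 2-fold. An age difference was called at the same adjusted p with no fold threshold. In sorted samples such as these, fewer cells that express a gene and less of its RNA per cell cannot be told apart. Precision is limited by how many arrays each group has.

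Interleukin-1 alpha and beta, from Il1a and Il1b, act on the same receptor, and Il1rn encodes the antagonist that occupies that receptor without signalling. Nlrp3 assembles an inflammasome in which caspase-1 matures interleukin-1 beta and interleukin-18, so that their transcripts alone do not give the active cytokines. Tnf and Il6 are acute cytokines of myeloid cells and stroma, and Il12b encodes the subunit that interleukin-12 and interleukin-23 share. Ptgs2 encodes the inducible cyclooxygenase, which makes the common precursor of the prostaglandins, and Ptger3 encodes a receptor for prostaglandin E2. In the thymus, dendritic cells and mature medullary epithelium present self antigens to developing T cells, and the organ shrinks with age.

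The sorted populations carried markers of their labels, though some of these were higher elsewhere. The mean of 6 mTEClo markers lay between 10.66 and 11.11 on the mTEClo arrays and between 9.74 and 10.42 on the cTEC arrays. Among them, Trp63 averaged 10.91 in mTEClo and 11.11 in cTEC. The mean of 8 cTEC markers lay between 10.08 and 11.55 on the cTEC arrays and no higher than 8.84 elsewhere. Cd83 of that list averaged 10.79 in cTEC, 11.83 in Sirpa+ DC and 11.86 in Sirpa- DC. Sirpa lay between 10.01 and 10.36 on the Sirpa+ DC arrays and between 5.56 and 7.67 on the Sirpa- DC arrays, where the dendritic cell receptor Xcr1 lay between 8.8 and 9.89. Aire, the regulator of self antigens in medullary epithelium, lay between 10.67 and 11.97 on the mTEChi arrays, and the cortical proteasome subunit Psmb11 lay between 10.18 and 12.16 on the cTEC arrays. The means of 11 macrophage markers, among them Csf1r and C1qa, lay between 9.21 and 10.06 on the Sirpa+ DC arrays and between 6.54 and 8.28 on the Sirpa- DC arrays. Fibroblast arrays also held thymocyte transcripts, with means of 13 thymocyte markers between 8.9 and 11.14 and the fibroblast marker Pdgfra at 8.1 on the second array at 6 months, against 11.87 and 11.46 at 1 month. All 36 arrays were closest to an array of their own population.

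The windows around the transcription starts of 4 members are shown because these genes carry the findings below: Il1a and Il1b are neighbours on chromosome 2 and were highest in Sirpa+ DC, Il6 was the one member that was high in dendritic cells and fibroblasts together, and Ptgs2 was highest in mTEChi. Each window covers 300 bases around the annotated start, most of them upstream of it, on the gene's strand, from RefSeq on GRCm38.p6, and all 10 members matched that table by symbol. Capitals mark matches to a TATA box (TATAAA), an AP-1 site (TGANTCA) or the NF-kB consensus.
Il1a, chr2:129309923-129310222, minus strand: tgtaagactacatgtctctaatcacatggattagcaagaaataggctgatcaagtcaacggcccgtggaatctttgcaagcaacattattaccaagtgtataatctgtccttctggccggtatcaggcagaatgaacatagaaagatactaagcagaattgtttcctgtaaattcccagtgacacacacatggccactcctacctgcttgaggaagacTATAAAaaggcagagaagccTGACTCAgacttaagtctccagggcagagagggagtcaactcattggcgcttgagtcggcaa
Il1b, chr2:129371090-129371389, minus strand: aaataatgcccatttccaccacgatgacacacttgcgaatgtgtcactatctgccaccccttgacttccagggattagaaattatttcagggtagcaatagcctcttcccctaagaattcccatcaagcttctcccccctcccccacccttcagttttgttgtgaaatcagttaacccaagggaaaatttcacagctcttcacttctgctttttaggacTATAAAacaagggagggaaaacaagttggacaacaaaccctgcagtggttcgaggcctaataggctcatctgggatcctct
Il6, chr5:30012864-30013163, plus strand: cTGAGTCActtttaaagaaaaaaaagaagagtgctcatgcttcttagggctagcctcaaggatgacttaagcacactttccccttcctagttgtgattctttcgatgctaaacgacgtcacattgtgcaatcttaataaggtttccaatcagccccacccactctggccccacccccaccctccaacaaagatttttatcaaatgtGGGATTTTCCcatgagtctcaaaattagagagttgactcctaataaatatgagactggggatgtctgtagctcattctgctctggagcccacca
Ptgs2, chr1:150099781-150100080, plus strand: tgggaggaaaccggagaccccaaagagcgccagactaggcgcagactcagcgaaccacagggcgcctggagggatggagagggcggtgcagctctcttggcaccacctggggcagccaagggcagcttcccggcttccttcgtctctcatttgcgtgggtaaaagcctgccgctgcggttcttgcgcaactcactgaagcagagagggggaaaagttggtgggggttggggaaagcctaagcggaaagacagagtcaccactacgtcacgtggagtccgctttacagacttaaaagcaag
The motifs were searched on both strands, with a CRE (TGACGTCA) and a PU.1 site (GAGGAAGT) beside those above, and matches were allowed to overlap. The Il1a window held a TATA box whose first base was at position -32 from the start and an AP-1 site at -12, and the Il1b window held a TATA box at -31. The Il6 window held an NF-kB consensus at -44 and an AP-1 site at -249, and the letters searched were not in the Ptgs2 window. Over the 13 windows of the 10 members, 5 held the letters of a TATA box, 3 an AP-1 site, 2 the NF-kB consensus and none a CRE or a PU.1 site. The TATAAA matches of Il1rn (position 15) and Il18 (-175) and the NF-kB match of Nlrp3 (-186) were on the strand opposite to the gene. Among all 32851 windows of the table the shares were 13.6% for the TATA box, 7.81% for the AP-1 site, 4.51% for the NF-kB consensus, 1.79% for the CRE and 3.2% for the PU.1 site. A match describes the letters and is not a binding site.

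Most of the 10 genes were highest in dendritic cells. In Sirpa+ DC, 9 of the 10 members were called higher than in the mean of the other 5 populations and none was called lower, while 6.7% of all genes tested were called higher and 10.2% lower. The member outside that count was Ptger3, which averaged 5.97 in Sirpa+ DC and 6.95 in the others, a difference of -0.98 ± 0.12 (SE). In Sirpa- DC, Il1b, Il6, Il12b and Il18 were higher and Il1rn, Ptgs2 and Ptger3 lower, with 6.2% of all genes called higher and 13% lower. The 2 dendritic populations together stood above the 3 epithelial ones for 7 members and below them for Ptger3 alone, against 8.6% of all genes higher and 15.9% lower. Of those 7, Il12b differed most, at 4.84 ± 0.14 on the log2 scale, and Nlrp3 least, at 1.13 ± 0.08, while Il1rn (-0.8 ± 0.1) and Ptgs2 (-0.56 ± 0.19) missed the fold threshold.

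The other populations held fewer high members. In fibroblasts, 1 member, Il6, was called higher and 6 were called lower, with 8.38% of all genes higher and 9.98% lower. With the mean of the thymocyte markers as a covariate, the fibroblast calls of Il6, Il1b, Il18 and Ptger3 were lost. Their adjusted p in limma were then 0.712, 0.179, 0.304 and 0.0601. As given for Il6 below, that fit could hardly separate the thymocyte mean from the population. In mTEChi, Il1rn, Ptgs2 and Ptger3 were called higher and Il6 and Il18 lower, with 13.9% of all genes higher and 5.31% lower. The mean of 9 neutrophil markers was also highest in mTEChi, between 7.52 and 7.94 on its arrays, with medians from 5.25 to 5.92 elsewhere, and 5 of 7 tested were called higher there. S100a8 averaged 11.36 and Camp 9.28 in mTEChi, while the neutrophil receptors Csf3r (5.21) and Cxcr2 (4.83) were under the dim mark. The macrophage markers had a median of 6.85 in mTEChi, against 5.38 in mTEClo and 5.5 in cTEC, and the part of either list in the mTEChi levels was not tested. In mTEClo, Ptger3 was higher and Il1b, Il6 and Il12b were lower, with 9.42% of all genes higher and 5.37% lower. In cTEC, Ptger3 was higher and 6 members were lower, with 9.73% of all genes higher and 6.37% lower. So Ptger3 was called above the mean of the other 5 populations in each epithelial population. Among these, mTEChi alone was also called higher for Il1rn and Ptgs2. The median difference over the 10 members was 1.83 in Sirpa+ DC, 0.7 in Sirpa- DC, -1.31 in fibroblasts, -0.23 in mTEChi, -0.84 in mTEClo and -1.47 in cTEC, where the median over all genes tested lay between -0.07 and -0.02.

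**Figure D1:**
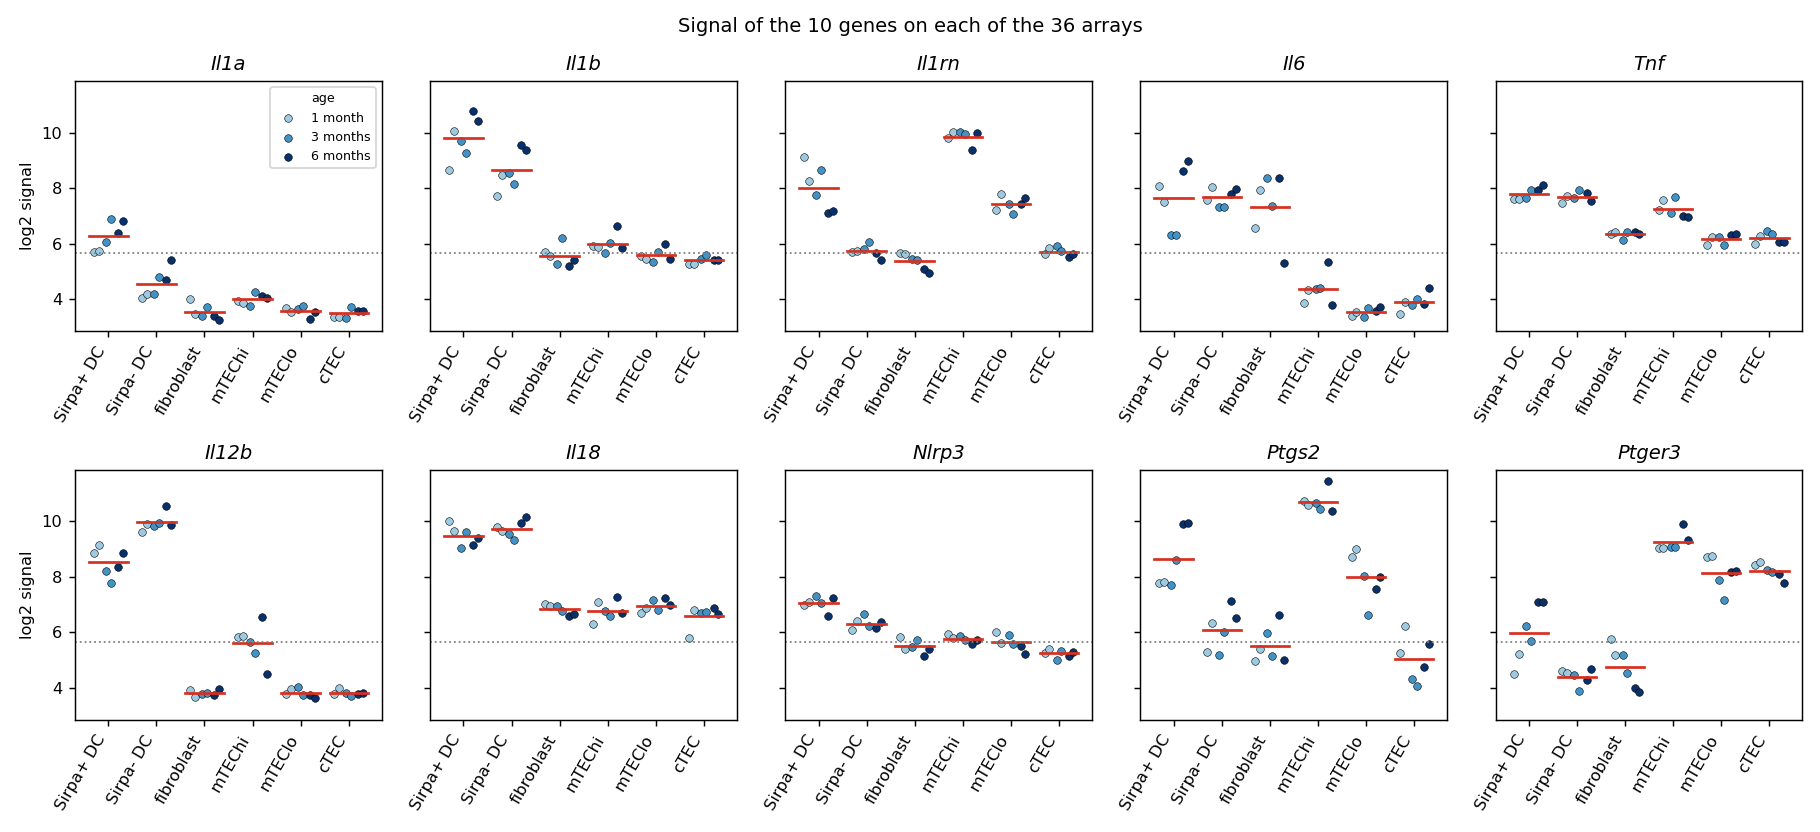
The log2 signal of each of the 10 genes is plotted for each of the 36 arrays, by population, with points shaded by age, red bars at the mean of the 6 arrays of a population and a dotted line at 5.66. Il1a, Il1b, Il12b and Il18 stand highest in the dendritic cells, Il1rn and Ptgs2 in mTEChi, and Ptger3 in the 3 epithelial populations.

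**Figure D2:**
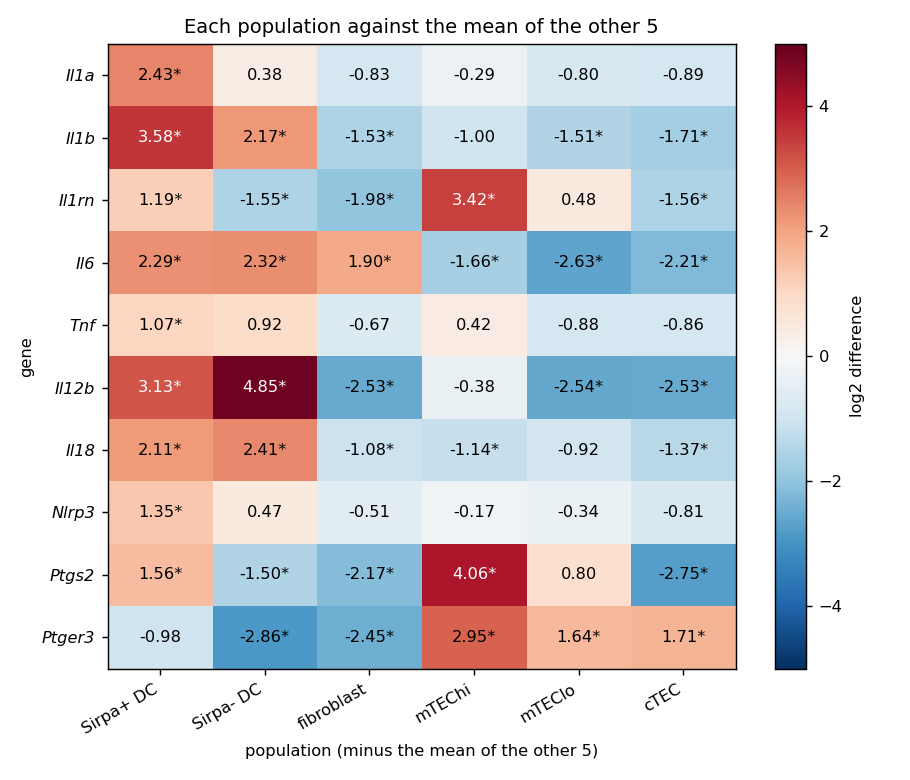
Cells give the log2 difference between a population (columns) and the mean of the other 5 for each gene (rows), and an asterisk marks an adjusted p under 0.05 in limma together with at least 2-fold. The column of Sirpa+ DC holds 9 asterisks, all on positive differences, and the row of Ptger3 is positive in the 3 epithelial populations only.

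Pairs of populations that stand next to each other in the order of a gene's levels were compared to see which steps exceed the spread. The share of all genes called was 5.37% between Sirpa+ and Sirpa- DC, 20.8% between Sirpa+ DC and fibroblasts, 26.8% between Sirpa+ DC and mTEChi and 24.8% between Sirpa+ DC and mTEClo. It was 21.2% between Sirpa- DC and fibroblasts, 28.5% between Sirpa- DC and mTEChi, 26.1% between Sirpa- DC and mTEClo and 27.5% between Sirpa- DC and cTEC. For fibroblasts it was 29.6% against mTEChi, 22% against mTEClo and 21.3% against cTEC. Within the epithelium it was 19.6% between mTEChi and mTEClo, 23.8% between mTEChi and cTEC and 8.01% between mTEClo and cTEC. Of the 10 members, 6 were called between Sirpa+ and Sirpa- DC, 5 between mTEChi and mTEClo, 5 between mTEChi and cTEC and 2 between mTEClo and cTEC.

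Il1a (chr2:129299609-129310186) was the member most restricted to 1 population. It had a lowest signal of 5.7, a median of 6.22 and a highest signal of 6.89 on the 6 Sirpa+ DC arrays, and these were the only arrays of the 36 on which it exceeded 5.66. The other 30 arrays lay lower, from 4.04 to 5.39 in Sirpa- DC and from 3.25 to 4.25 in the fibroblasts and the 3 epithelial populations. Sirpa+ DC exceeded Sirpa- DC by 1.72 ± 0.16 (adjusted p 4.99e-09, limma). The step from Sirpa- DC to mTEChi was 0.55 ± 0.16, short of 2-fold, and mTEClo, fibroblasts and cTEC did not differ beyond their spread (adjusted p from 0.79 to 0.901 for the neighbours).

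Il1b (chr2:129364569-129371164) was high in both dendritic populations. Its lowest, median and highest signals were 8.66, 9.88 and 10.77 in Sirpa+ DC and 7.73, 8.51 and 9.55 in Sirpa- DC, so the dendritic populations overlapped with each other but not with any other population. The difference between them was 1.17 ± 0.2 (adjusted p 8.72e-05) and fell to 0.94, under 2-fold, without the second Sirpa+ DC array at 1 month. In mTEChi, mTEClo, fibroblasts and cTEC the gene averaged 6.0, 5.57, 5.55 and 5.4, and neighbours in that order did not pass the threshold. Sirpa+ DC stood 3.58 ± 0.16 above the mean of the other 5 populations, an 11.9-fold difference.

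Il1rn (chr2:24336860-24351491), the antagonist, had another order. It was highest in mTEChi, at a lowest, median and highest signal of 9.36, 9.98 and 10.01, and every mTEChi array exceeded every array of the other populations. Sirpa+ DC followed with 7.09, 8.01 and 9.11, then mTEClo with 7.05, 7.41 and 7.77, and these overlapped. Sirpa- DC (mean 5.72), cTEC (5.71) and fibroblasts (5.36) were near the dim mark and did not differ beyond their spread as neighbours (adjusted p 0.948 and 0.0532). Sirpa+ DC were thus high for the agonists and the antagonist, whereas Sirpa- DC, with Il1b at 8.64 ± 0.7 (SD, n = 6), had Il1rn 1.55 ± 0.12 (SE) below the mean of the other 5 populations, though not below cTEC or fibroblasts. Of 2 further Il1rn probe sets, one kept this order of mTEChi and Sirpa+ DC (9.1 and 8.08) and the other was dim, with population means between 5.16 and 6.21 and no difference from the other 5 populations past 2-fold.

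Nlrp3 (chr11:59541569-59566955), the sensor of the inflammasome, and Il18 (chr9:50554700-50581841), one of the cytokines it matures, were both highest in dendritic cells. Nlrp3 had a lowest, median and highest signal of 6.59, 7.07 and 7.31 in Sirpa+ DC, against 6.08, 6.29 and 6.66 in Sirpa- DC, populations that overlapped and whose difference of 0.73 ± 0.13 missed 2-fold. In the fibroblasts and epithelial populations it averaged between 5.24 and 5.77. Il18 had means of 9.48 ± 0.36 for Sirpa+ DC and 9.74 ± 0.3 for Sirpa- DC (SD, n = 6 each), and their arrays overlapped (adjusted p 0.313). It lay between 5.78 and 7.28 in all other arrays, above the dim mark on every one of the 36 arrays. The step from Sirpa+ DC to the next population, mTEClo, was 2.52 ± 0.16.

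Tnf (chr17:35199367-35202007) had the narrowest range of population means and was above the dim mark on all 36 arrays. It averaged 7.8 ± 0.22 in Sirpa+ DC, 7.67 ± 0.17 in Sirpa- DC and 7.25 ± 0.3 in mTEChi, and 6.35, 6.19 and 6.17 in fibroblasts, cTEC and mTEClo (SD for the first 3, n = 6 each). All mTEChi arrays lay above all mTEClo arrays, 6.96 to 7.69 against 5.94 to 6.34, and the difference of 1.08 ± 0.11 was called. It fell to 0.98, just under 2-fold, without the second mTEChi array at 3 months, and the difference of 1.06 ± 0.11 between mTEChi and cTEC fell to 0.96 without the same array.

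Il6 (chr5:30013114-30019975) was shared by dendritic cells and fibroblasts. Its lowest, median and highest signals were 6.3, 7.8 and 8.99 in Sirpa+ DC, 7.31, 7.67 and 8.04 in Sirpa- DC and 5.3, 7.65 and 8.38 in fibroblasts, and none of these 3 differed from its neighbour beyond the spread (adjusted p 0.98 and 0.429). The epithelial arrays lay between 3.36 and 5.33, all under the dim mark. Fibroblasts stood 1.9 ± 0.27 above the mean of the other 5 populations (adjusted p 8.38e-07), and with the mean of the thymocyte markers as a covariate the difference was 0.95 ± 1.19 (adjusted p 0.712). The thymocyte mean lay between 8.9 and 11.14 on the fibroblast arrays and no higher than 8.74 elsewhere, so that fit could hardly separate it from the population. The lowest fibroblast array, 5.3, was the second at 6 months, which also had the lowest Pdgfra of the fibroblast arrays and the highest thymocyte mean; their part in the Il6 level was not tested.

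Il12b (chr11:44400063-44414677) separated the populations most widely. It had a lowest, median and highest signal of 7.78, 8.61 and 9.13 in Sirpa+ DC, against 9.62, 9.9 and 10.57 in Sirpa- DC, and the 2 populations did not overlap. Sirpa+ DC were 1.43 lower on the log2 scale than Sirpa- DC (-1.43 ± 0.21, adjusted p 1.07e-05), the only member called lower in that direction. mTEChi followed at 5.61 ± 0.69 (SD, n = 6), with single arrays between 4.48 and 6.54, and exceeded mTEClo by 1.8 ± 0.21. Fibroblasts, mTEClo and cTEC each averaged 3.81 and overlapped. A second, dimmer probe set placed the populations of dendritic cells in the same order (6.35 in Sirpa+ DC and 8.22 in Sirpa- DC) and gave 0.5 ± 0.14 between mTEChi and mTEClo. On that probe set both arrays at 6 months exceeded both at 1 month in mTEChi (5.79 and 5.72 against 4.14 and 4.2). The same held in Sirpa- DC (9.07 and 8.6 against 7.21 and 8.15) and Sirpa+ DC (7.03 and 7.55 against 6.21 and 6.12). In mTEChi and both dendritic populations, signals of the probe set used overlapped between these ages. Fibroblasts, mTEClo and cTEC stayed between 3.85 and 4.4 on the second probe set, and age was not tested on it alone.

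Ptgs2 (chr1:150100031-150108234) was highest in mTEChi, with a lowest, median and highest signal of 10.36, 10.63 and 11.45, above every array of the other populations. Sirpa+ DC came next at 7.7, 8.21 and 9.95, followed by mTEClo at 6.63, 8.02 and 9.0, and these did not differ beyond their spread (0.64 ± 0.29, adjusted p 0.0625). Sirpa- DC, fibroblasts and cTEC averaged 6.07, 5.52 and 5.03 and overlapped, with adjusted p of 0.105 and 0.164 for the neighbours. mTEChi exceeded mTEClo by 2.72 ± 0.29 and Sirpa+ DC exceeded Sirpa- DC by 2.55 ± 0.29. A second, dimmer Ptgs2 probe set also had its highest means in mTEChi (6.8) and Sirpa+ DC (5.72), with the other populations between 4.23 and 4.68.

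Ptger3 (chr3:157566821-157644758) was the epithelial member. Its lowest, median and highest signals were 9.04, 9.08 and 9.89 in mTEChi, 7.17, 8.19 and 8.74 in mTEClo and 7.79, 8.22 and 8.52 in cTEC. The last 2 did not differ beyond their spread (-0.06 ± 0.16 for mTEClo minus cTEC, adjusted p 0.819), and mTEChi exceeded cTEC by 1.03 ± 0.16, which dropped under 2-fold without the first mTEChi array at 6 months (0.94) or the second cTEC array at 6 months (0.98). The excess of mTEChi over mTEClo, 1.09 ± 0.16, was 1.0 without the first mTEChi array at 6 months and 0.97 without the second mTEClo array at 3 months. Sirpa+ DC lay between 4.48 and 7.1, fibroblasts between 3.85 and 5.75 and Sirpa- DC between 3.89 and 4.66. A second Ptger3 probe set was under the dim mark on all 36 arrays.

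Over the 18 group means, the members fell into the same sets that the levels show, which is a description of groups that share populations and carries no test. Il1b correlated at 0.94 with Il18, 0.93 with Il1a, 0.92 with Nlrp3 and 0.9 with Il12b (Pearson). Il1rn correlated at 0.89 with Ptgs2 and at 0.08 with Il1b. Ptger3 was highest against Il1rn, at 0.58, and lowest against Il6, at -0.82.

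Genes with the most similar pattern were taken for each member whose population means ranged over at least 2 log2 units, as the 3 highest Pearson correlations over the 18 group means among all genes tested. For Il1a these were Cd300a (0.987), Clec4a2 (0.975) and the complement gene C1qc (0.973), and for Il1b they were the receptor Tlr13 (0.987), Nfam1 (0.987) and Lat2 (0.985). For Il12b they were Tnni2 (0.992), Ffar4 (0.988) and Septin3 (0.987), and for Il18 they were Amz1 (0.989), Tifab (0.987) and Pctp (0.986). The closest to Il6 were Acss1 (0.961), Adap2 (0.958) and the chemokine receptor Cxcr4 (0.949). Il1rn was closest to Slc6a20a (0.949), Fmn1 (0.935) and the chemokine Ccl9 (0.932), Ptgs2 to Gramd4 (0.951), Tmem19 (0.942) and 1110032F04Rik (0.922), and Ptger3 to Cish (0.952), Stxbp6 (0.951) and Snx16 (0.951). Tnf and Nlrp3 ranged over less than 2 log2 units and were not matched.

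Age changed few members, and most of those changes were in Sirpa+ DC. Between 6 months and 1 month in Sirpa+ DC, 2 members rose and 1 fell, with 2.06% of all genes called. Between 6 and 3 months 2 rose and 1 fell, with 1.23% of all genes called, and between 3 months and 1 month no member was called in limma, 4 having an unadjusted p under 0.05, with 0.331% of all genes called. Each such comparison rests on 2 arrays at either age, and its SE on the pooled spread within all 18 groups.

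Ptger3 rose in Sirpa+ DC. It had 4.48 and 5.22 at 1 month, 6.22 and 5.7 at 3 months and 7.1 and 7.1 at 6 months. Both arrays at 6 months exceeded all earlier ones, and the rise over 1 month was 2.25 ± 0.28, or 4.75-fold (adjusted p 7.79e-05). The rise over 3 months was 1.14 ± 0.28 (adjusted p 0.0377), and it was not called without any one of the 4 arrays compared, with adjusted p from 0.0578 to 0.306. In Sirpa- DC the gene stayed between 3.89 and 4.66 at all ages. The change in Sirpa+ DC differed from the mean change of the other 5 populations by 2.68 ± 0.3 (adjusted p 6.6e-05).

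Ptgs2 rose with it in Sirpa+ DC. It had 7.79 and 7.8 at 1 month, 7.7 and 8.62 at 3 months and 9.91 and 9.95 at 6 months. The arrays at 6 months stood above all others of the population, by 2.13 ± 0.51 over 1 month (4.39-fold, adjusted p 0.0235) and by 1.77 ± 0.51 over 3 months (adjusted p 0.0877). Without any one of the 4 arrays at 1 and 6 months the difference stayed between 2.11 and 2.15, with adjusted p from 0.111 to 0.214. The second Ptgs2 probe set gave 1.4 ± 0.37 (adjusted p 0.0214). Against the mean change of the other 5 populations the difference was 2.09 ± 0.55 and did not pass the threshold (adjusted p 0.166), though it did without the first fibroblast array at 6 months (2.25, adjusted p 0.0356).

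Il1rn fell in Sirpa+ DC on the probe set used. It had 9.11 and 8.26 at 1 month, 7.76 and 8.64 at 3 months and 7.09 and 7.19 at 6 months. It fell by 1.54 on the log2 scale between 6 months and 1 month (-1.54 ± 0.26, adjusted p 0.00224) and by 1.06 between 6 and 3 months (-1.06 ± 0.26, adjusted p 0.0448). The first call was lost without the first array at 1 month (-1.12, adjusted p 0.109) or the first array at 6 months (-1.49, adjusted p 0.0658), and the second call was kept in 15 of the 36 fits that each left out 1 array, not passing for example without the second array at 3 months (-0.62, adjusted p 0.279). The other probe sets did not pass the threshold: between 6 months and 1 month the dim one gave 0.15 (adjusted p 0.743), and the bright one gave -0.71 ± 0.39 (adjusted p 0.341), lower on both later arrays, with 7.84 and 7.85 at 6 months against 8.47 and 8.63 at 1 month.

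Il6 in Sirpa+ DC was lowest at 3 months. It had 8.09 and 7.51 at 1 month, 6.32 and 6.3 at 3 months and 8.6 and 8.99 at 6 months, so it rose by 2.48 ± 0.59 between 6 and 3 months (5.59-fold, adjusted p 0.0352), and without any one of these 4 arrays that call was lost (adjusted p from 0.0876 to 0.27). Between 6 months and 1 month its difference was 0.99 ± 0.59 (adjusted p 0.426). In Sirpa- DC it stayed between 7.31 and 8.04.

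Il1a and Il1b were higher at 6 months than at 1 month on all arrays of both dendritic populations without passing the threshold. Il1b had 8.66 and 10.07 at 1 month, 9.69 and 9.25 at 3 months and 10.77 and 10.43 at 6 months in Sirpa+ DC, a difference of 1.23 ± 0.35 between the last and first ages (adjusted p 0.0705). In Sirpa- DC it had 7.73 and 8.47 at 1 month, 8.56 and 8.15 at 3 months and 9.55 and 9.38 at 6 months, a difference of 1.37 ± 0.35 (adjusted p 0.0601). Il1b passed the threshold in both under array weights, with adjusted p of 0.00906 in Sirpa+ DC and 0.00195 in Sirpa- DC. It also passed in Sirpa+ DC without the second array at 1 month (1.94, adjusted p 0.00611) or either mTEChi array at 6 months (adjusted p 0.0398), and in Sirpa- DC without any one of 6 arrays of other populations (adjusted p from 0.0269 to 0.0473). On the Sirpa- DC arrays the mean of the 11 macrophage markers was 7.67 and 6.75 at 1 month, 6.54 and 8.16 at 3 months and 8.27 and 8.28 at 6 months, with a median difference of 1.16 between 6 months and 1 month and none of 10 called. The mean of 12 immediate early and heat shock genes there was 10.71 and 10.71 at 1 month, 10.69 and 10.59 at 3 months and 11.57 and 11.5 at 6 months, with 1 of 12 called higher. Their part in the level of Il1b was not tested. Il1a differed by 0.89 ± 0.27 in Sirpa+ DC (adjusted p 0.0856) and by 0.92 ± 0.27 in Sirpa- DC (adjusted p 0.111).

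Other measures moved with age on the same Sirpa+ DC arrays. The mean of 12 immediate early and heat shock genes, which respond within minutes to cell handling and to stimulation, was 10.8 and 11.06 at 1 month, 10.73 and 10.82 at 3 months and 11.86 and 11.65 at 6 months, and Ier2 and Junb of that list were called higher at 6 months than at 1 month, by 1.39 ± 0.31 and 1.47 ± 0.29. The arrays on which Ptgs2 was highest were thus those on which that list was highest, and its part in the rise was not tested. The mean of the 6 mTEChi markers, a population in which Ptgs2, Ptger3 and Il1rn are high, was 7.08 and 7.35 at 1 month, 6.79 and 6.93 at 3 months and 7.12 and 7.12 at 6 months. At 6 months it thus lay within the range at 1 month and above both arrays at 3 months. None of the 6 was called between 6 months and 1 month, and their part in the age changes was not tested. Cd40 and Cd80 of that list averaged 10.77 and 8.34 in Sirpa+ DC, near their 11.26 and 8.83 in mTEChi. Aire (6.66 against 11.19) and Fezf2 (4.64 against 11.54) were further apart. The mean of the list could thus hardly show mTEChi transcripts on these arrays. The mean of the 11 macrophage markers was 10.06 and 9.81 at 1 month, 9.21 and 9.86 at 3 months and 9.68 and 9.69 at 6 months. Of 8 markers of Sirpa-positive dendritic cells, such as Sirpa and Mgl2, 1 was called higher at 6 months than at 1 month, with 2.06% of all genes called. Their median difference was 0.55, against -0.28 for macrophage markers, -0.44 for monocyte markers and -0.05 over all genes. The part of these lists in the age changes was not tested. The mean of 9 neutrophil markers was 6.38 and 6.0 at 1 month, 5.5 and 5.61 at 3 months and 5.35 and 5.29 at 6 months. S100a8 of that list had 4.39 and 4.42 at 6 months, against 7.63 and 7.08 at 1 month, in the direction of Il1rn; its part in that fall was not tested. The difference between 3' and 5' control probe sets, a sign of RNA quality and amplification, was 1.75 and 1.8 at 1 month, 2.09 and 1.41 at 3 months and 1.41 and 1.52 at 6 months in Sirpa+ DC. It was lower on both arrays at 6 months than on either at 1 month in each of the 6 populations. With it as a covariate the calls between 6 and 3 months of Il6 (2.4 ± 0.62, adjusted p 0.056) and Il1rn (-1.09 ± 0.28, adjusted p 0.0516) were lost. The labels of the 4 dendritic arrays at 6 months carry fields that the other dendritic arrays lack, and no label or header gives a processing date, so age and any shared handling of an age cannot be told apart.

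**Figure D3:**
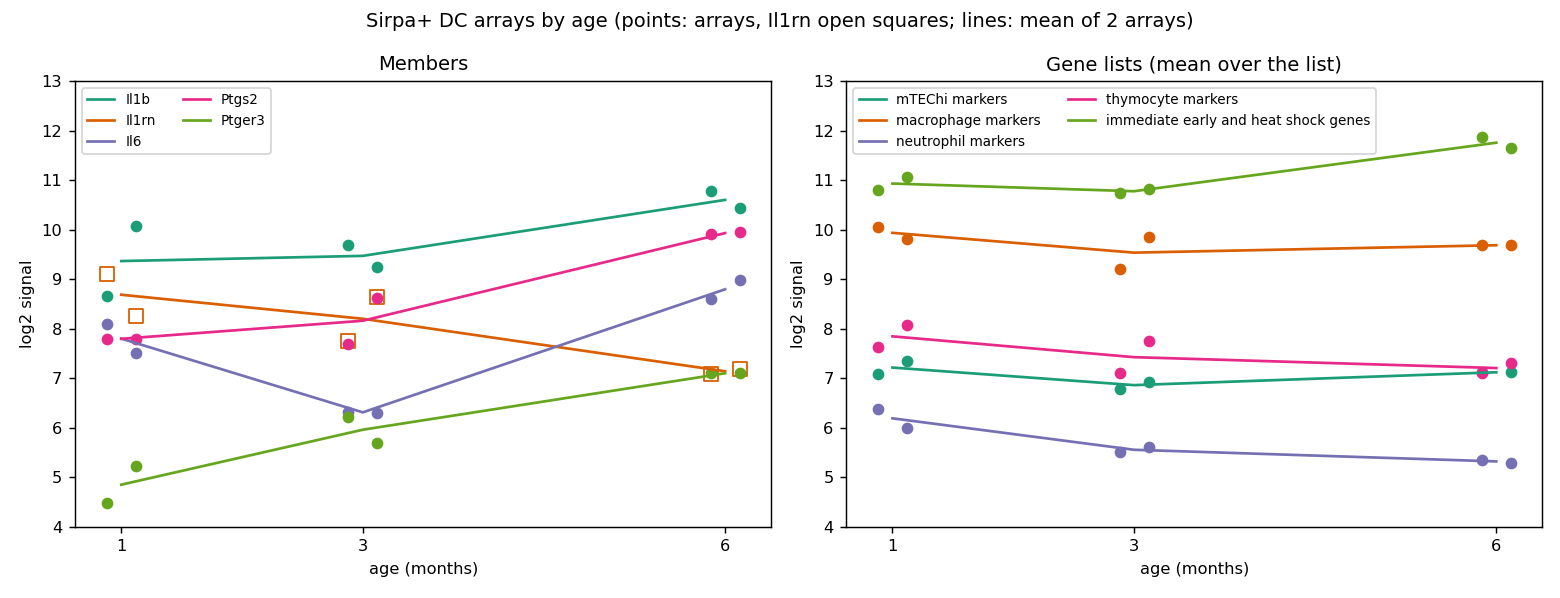
Left, the log2 signals of 5 members on the 6 Sirpa+ DC arrays by age in months; right, the means of 5 gene lists on the same arrays. Ptgs2 and Ptger3 are highest at 6 months and Il1rn is lowest there. The immediate early list is also highest at 6 months.

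Within the other populations, Ptger3 alone was called with age on the probe sets used. In fibroblasts it fell with age, with 5.75 and 5.19 at 1 month, 5.17 and 4.53 at 3 months and 4.0 and 3.85 at 6 months, a difference of -1.54 ± 0.28 between the last and first ages (adjusted p 0.000172). Between 6 and 3 months it fell by 0.92 (-0.92 ± 0.28, adjusted p 0.0245), and that call was lost without the first array at 3 months (-0.6, adjusted p 0.297) or the second at 6 months (-0.85, adjusted p 0.168). Against the mean change of the other 5 populations the fibroblast change was -1.86 ± 0.3 (adjusted p 0.000136), and with the thymocyte mean as a covariate it was -1.41 ± 0.41 (adjusted p 0.0696). In the same arrays thymocyte markers rose between 1 and 6 months for 8 of 13 genes and fibroblast markers fell for 9 of 10, and their part in the fall of Ptger3, which ended under the dim mark, was not tested. In mTEClo it fell by 1.2 between 3 months and 1 month (-1.2 ± 0.28, adjusted p 0.0198), with 7.89 and 7.17 at 3 months and 8.73 and 8.74 at 1 month, and was 8.18 and 8.2 at 6 months; without the second array at 3 months the difference was -0.84 (adjusted p 0.492), and without either array at 1 month the adjusted p was 0.109 and 0.181.

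Whether the members changed with age differently in the 6 populations was asked with a moderated F-test over 10 contrasts. Of the 10 members, Ptger3 alone passed it (adjusted p 5.97e-05), with 15.7% of all genes passing. Ptgs2 followed at an adjusted p of 0.054 and Il1rn at 0.0817, and the other 7 lay between 0.139 and 0.925. When a population's change between 6 months and 1 month was set against the mean change of the other 5, the share of all genes called was 0.2% for Sirpa+ DC, 0.186% for Sirpa- DC, 26.4% for fibroblasts, 3.43% for mTEChi, 3.81% for mTEClo and 2.3% for cTEC. Members called were Ptger3 in Sirpa+ DC and Ptger3 and Il1a in fibroblasts. The Il1a difference of -0.81 ± 0.3 (adjusted p 0.0449) concerned signals between 3.25 and 4.01 in fibroblasts, all dim. It was kept in 20 of the 36 fits that each left out 1 array, and without the first fibroblast array at 1 month it was -0.53 (adjusted p 0.37).

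In the remaining comparisons of ages limma called no member except the 3 of Ptger3 given above. In Sirpa- DC, 0 members were called between 3 months and 1 month, 6 months and 1 month, and 6 and 3 months, with 0, 2 and 3 members at an unadjusted p under 0.05 and 0.0345%, 0.904% and 0.29% of all genes called. In fibroblasts the same 3 comparisons called 20.4%, 36.2% and 16.2% of all genes, with 1, 2 and 1 members at an unadjusted p under 0.05. In mTEChi they called 0 members, with 0, 1 and 1 at an unadjusted p under 0.05, and 0%, 9.51% and 7.87% of all genes, the first having 385 genes at an unadjusted p under 0.05. In mTEClo they called 1.77%, 6.42% and 2.39% of all genes, with 2, 1 and 1 members at an unadjusted p under 0.05. In cTEC they called 0 members, with 1, 0 and 0 at an unadjusted p under 0.05, and 5.4%, 6.45% and 3.84% of all genes. Ptgs2 in cTEC and mTEClo was lower on both arrays at 3 months than on either at 1 month without passing the threshold, with 4.33 and 4.06 at 3 months against 5.26 and 6.24 at 1 month in cTEC (adjusted p 0.0753) and 8.02 and 6.63 at 3 months against 8.73 and 9.0 at 1 month in mTEClo (adjusted p 0.15).

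**Figure D4:**
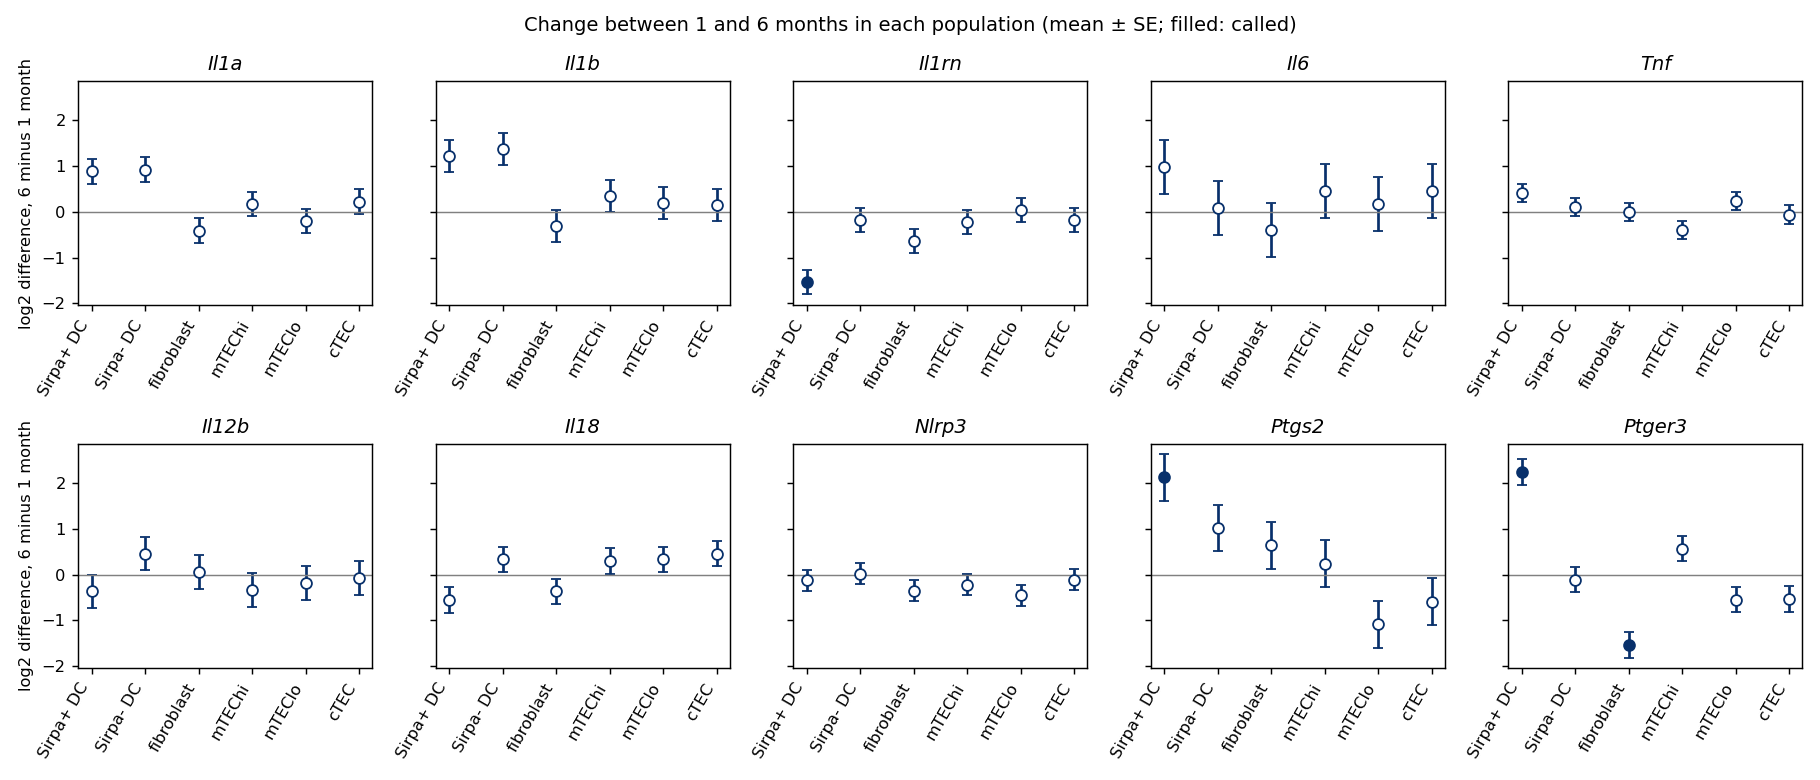
For each gene, points give the log2 difference between 6 months and 1 month in each population with its SE, and filled points mark an adjusted p under 0.05 in limma. Filled points stand for Il1rn (-1.54), Ptgs2 (2.13) and Ptger3 (2.25) in Sirpa+ DC and for Ptger3 (-1.54) in fibroblasts.

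Averaged over the 6 populations, the changes were small. Il1b rose by 0.49 ± 0.14 between 6 months and 1 month (adjusted p 0.00952), a call lost with the 3' minus 5' difference of the control probe sets as a covariate (0.42 ± 0.21, adjusted p 0.213), and by 0.38 ± 0.14 between 6 and 3 months (adjusted p 0.0443), and the second of these calls was kept in 17 of the 36 fits that each left out 1 array, with adjusted p up to 0.109 in the others. It was also lost with that covariate (adjusted p 0.119), with the random replicate block (0.0871), and under quantile scaling, array weights or the thymocyte covariate (0.077 to 0.0795). Il1rn fell by 0.45 (-0.45 ± 0.11, adjusted p 0.00223) and by 0.35 (-0.35 ± 0.11, adjusted p 0.0152), and Ptgs2 rose by 0.84 ± 0.21 between 6 and 3 months (adjusted p 0.00356). The Il1rn calls were lost on both other probe sets, the bright one giving -0.27 (adjusted p 0.186) and -0.29 (adjusted p 0.159), and the second Ptgs2 probe set gave 0.13 ± 0.15 (adjusted p 0.506). These are 2 and 3 of the 10 members, beside 36.6% of all genes called between 6 months and 1 month and 31.5% between 6 and 3 months, so the members' shares were no higher than the background. Between 3 months and 1 month no member was called in limma, 1 having an unadjusted p under 0.05, with 6.34% of all genes called. Of the 12 immediate early and heat shock genes, 7 rose between 6 months and 1 month in the same average and none fell.

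Genes that act with the members were counted by list, beside the shares of all genes tested. Those shares, higher and lower, were 6.7% and 10.2% in Sirpa+ DC, 6.2% and 13% in Sirpa- DC and 8.38% and 9.98% in fibroblasts. They were 13.9% and 5.31% in mTEChi, 9.42% and 5.37% in mTEClo and 9.73% and 6.37% in cTEC. With 7 to 13 genes tested in each list, several counts below lie near these shares and say little about a list. Of 12 receptors and regulators of interleukin-1 and interleukin-18 tested, 2 were higher and 3 lower in Sirpa+ DC than in the other 5 populations. The 2 were the decoy receptor Il1r2 (1.2 ± 0.21) and Il18bp (1.88 ± 0.08), which binds interleukin-18, while the signalling receptor Il1r1 was lower (-1.52 ± 0.18) and highest in fibroblasts (7.59 in Sirpa+ DC, against 10.33 in fibroblasts). In mTEChi 2 were higher and 1 lower, namely Il1r2 (2.07 ± 0.21) and Il18r1, a subunit of the interleukin-18 receptor (3.21 ± 0.16), and the adaptor Myd88 (-1.27 ± 0.1). In Sirpa- DC 1 was higher and 5 lower, in fibroblasts 2 and 4, in mTEClo 4 and 1, and in cTEC 1 and 0, the last being the alarmin Il33 (3.53 ± 0.28).

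The inflammasome was spread over several populations. Of its 11 components tested, 4 were higher and none lower in Sirpa+ DC, namely Naip5 (2.96 ± 0.14), Naip2 (2.96 ± 0.13), Mefv (2.88 ± 0.09) and the ATP receptor P2rx7 (1.59 ± 0.14). In mTEChi 4 were higher and none lower, and those were Casp4 (2.01 ± 0.17), Casp1 (1.8 ± 0.11), Naip2 (1.71 ± 0.13) and Nlrp6 (1.14 ± 0.1). Casp1, which cleaves the precursors of interleukin-1 beta and interleukin-18, had a mean of 9.33 for Sirpa+ DC and 7.77 for Sirpa- DC, a difference of 1.55 ± 0.15. It was highest in mTEChi, at 10.29. The counts higher and lower were 3 and 2 in Sirpa- DC, 0 and 4 in fibroblasts, 0 and 3 in mTEClo and 1 and 3 in cTEC.

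For the other cytokines, 3 of 9 TNF receptor and signalling genes were higher in Sirpa+ DC and none lower, among them the receptor Tnfrsf1b (2.44 ± 0.11). The counts were 2 and 0 in Sirpa- DC, 1 and 0 in fibroblasts, 1 and 1 in mTEChi, 0 and 3 in mTEClo and 0 and 3 in cTEC. Of 12 genes of the interleukin-6 family, 3 were higher and 2 lower in Sirpa+ DC, with the receptor Il6ra (2.07 ± 0.15) and the cytokine Osm (2.95 ± 0.09) higher and the receptor Osmr lower (-4.75 ± 0.17). Osmr had a mean of 4.49 for Sirpa+ DC, against 9.08 for mTEChi, 11.56 for mTEClo and 11.13 for cTEC, so this cytokine and its receptor were highest in different populations. The counts were 1 and 4 in Sirpa- DC, 2 and 1 in fibroblasts, 0 and 1 in mTEChi, 4 and 1 in mTEClo and 2 and 1 in cTEC.

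Other genes of the interleukin-12 family differed between mTEChi and the dendritic cells. Il12b itself averaged 5.61 in mTEChi, just under the dim mark, and 4.76 on its second probe set. Of 7 genes of the interleukin-12 family tested, 4 were higher and none lower in mTEChi: Il23a (4.59 ± 0.11), which pairs with the Il12b product to form interleukin-23, Ebi3 (2.08 ± 0.12), Il12a (1.99 ± 0.11), which pairs with it to form interleukin-12, and Ifng (1.81 ± 0.17). In Sirpa- DC, where Il12b was highest, Ebi3 was higher (2.66 ± 0.12) and Il23a lower (-1.88 ± 0.11), and Il12a averaged 4.32, under the dim mark. For Il23a the means were 9.79 in mTEChi and 7.71 in mTEClo, against 4.71 in Sirpa+ and 4.4 in Sirpa- DC. The counts higher and lower were 2 and 1 in Sirpa+ DC, 1 and 2 in fibroblasts, 1 and 2 in mTEClo and 0 and 2 in cTEC.

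Some genes of prostanoid synthesis and turnover were high in mTEChi beside Ptgs2. Of 11 genes of prostanoid synthesis and turnover tested, 5 were higher and none lower in mTEChi, with Pla2g4a, the phospholipase that frees arachidonic acid for Ptgs2, at 3.12 ± 0.18, the prostaglandin D synthase Ptgds at 2.17 ± 0.1, the prostaglandin transporter Slco2a1 at 1.81 ± 0.09 and the prostaglandin reductase Ptgr1 at 1.25 ± 0.13. Not all of these were highest in mTEChi: Slco2a1 averaged 9.97 there, 10.53 in mTEClo and 10.4 in cTEC. Ptgr1 averaged 9.93 in mTEChi and 9.72 in fibroblasts. The enzyme that inactivates prostaglandins, Hpgd, had means of 9.41 for mTEChi, 12.15 for mTEClo and 11.91 for cTEC, and was called higher in mTEClo (3.48 ± 0.28) and cTEC (3.18 ± 0.28). In Sirpa+ DC 2 were higher and 3 lower, the 2 being the thromboxane synthase Tbxas1 (1.92 ± 0.11) and the prostaglandin D synthase Hpgds (1.84 ± 0.1), and in fibroblasts 1 was higher and 3 lower, the 1 being the prostacyclin synthase Ptgis (3.42 ± 0.22). The counts were 1 and 5 in Sirpa- DC, 2 and 1 in mTEClo and 2 and 3 in cTEC.

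Receptors of prostanoids other than Ptger3 had their own distribution. Of 7 tested, Ptger4 alone was higher in Sirpa+ DC (1.24 ± 0.13) and none lower, and Ptger2 alone was higher in Sirpa- DC (2.24 ± 0.23). Ptger2 and Ptgir separated the dendritic populations, with Ptger2 2.48 lower in Sirpa+ than in Sirpa- DC (-2.48 ± 0.3) and Ptgir 1.19 ± 0.23 higher. Fibroblasts had 3 higher and none lower, the prostacyclin receptor Ptgir (2.12 ± 0.18), the thromboxane receptor Tbxa2r (1.74 ± 0.1) and Ptger2 (1.12 ± 0.23). None was higher in mTEChi, mTEClo or cTEC, where 1, 2 and 2 were lower, so that of the receptors tested Ptger3 alone was called higher in an epithelial population.

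**Figure D5:**
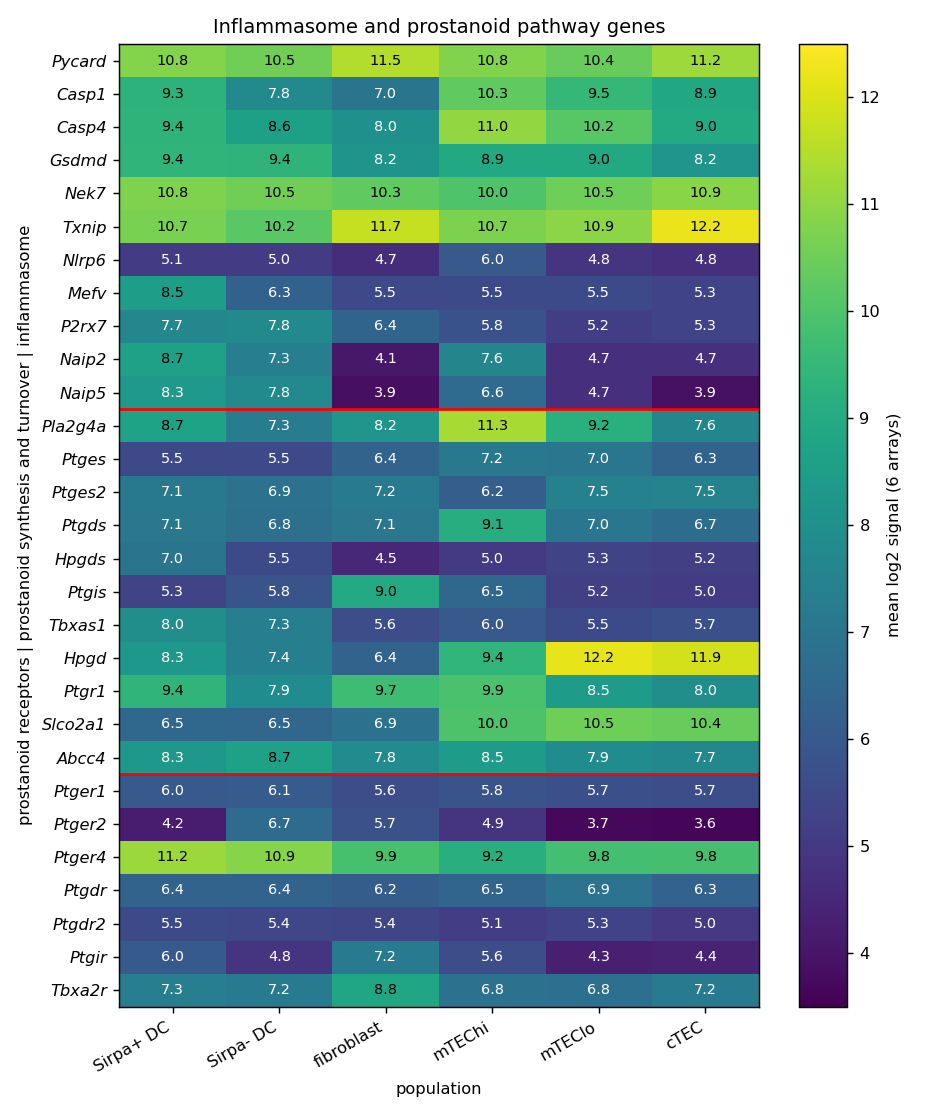
Cells give the mean log2 signal over the 6 arrays of a population for 11 inflammasome components, 11 genes of prostanoid synthesis and turnover and 7 prostanoid receptors, from top to bottom and divided by red lines. Rows are to be read across populations, since signals of different probe sets are not on one scale. Pla2g4a and Casp4 are highest in mTEChi, Hpgd in mTEClo and Ptgis in fibroblasts.

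NF-kB factors drive the transcription of many of these cytokines. Of 13 NF-kB subunits and feedback regulators tested, 3 were higher and none lower in Sirpa+ DC, with Rel at 2.04 ± 0.15 and the inhibitor Tnfaip3 at 1.21 ± 0.13. In mTEChi 3 were higher, Relb (1.15 ± 0.11), Nfkb2 (1.15 ± 0.09) and Nfkbie (1.08 ± 0.1), and 1 was lower, Tnfaip3 (-1.24 ± 0.13). Compared directly, Sirpa+ DC exceeded mTEChi for 3 of the 13, among them Tnfaip3 (2.04 ± 0.17) and Rel (1.57 ± 0.19), and for none was mTEChi called higher. Between these populations 26.8% of all genes were called in either direction. The counts were 1 and 0 in Sirpa- DC, 0 and 3 in fibroblasts, 0 and 1 in mTEClo and 0 and 2 in cTEC. Of the 12 immediate early and heat shock genes, none was higher and 1 lower in Sirpa+ DC, and 1 was higher and 1 lower in mTEChi. Outside the immediate early list, the other 8 lists held 1 gene called between 6 months and 1 month in Sirpa+ DC, Lta, a cytokine of the TNF family (-0.88 ± 0.21). Those lists had 7 to 13 genes tested each, and 2.06% of all genes were called in that comparison, so the count says little about the lists.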

How the data were processed

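The deposited table holds 1 column of log2 signals for each of 36 arrays (Affymetrix), which the authors normalized together with a collection of reference arrays, per the labels' design text. The submitters' processing notes name GCRMA, and base 2 was inferred from how far the signals spread. RNA of sorted cells was amplified before hybridisation, per the labels' protocols, which can widen the spread of dim genes. Probe sets came to 45101, of which 34945 had 1 gene symbol in the platform annotation, 932 had several and 9160 none, and 64 controls were left out. For each of 18193 genes the probe set with the highest mean was used, and 14495 genes above the pooled median of 5.66 on at least 2 arrays were tested.

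A coefficient per population and age (18 in all) was estimated with limma 3.58.1 in R 4.3.3 (lmFit, eBayes with trend, 18 residual degrees of freedom), and p-values were adjusted over all genes tested by the Benjamini-Hochberg method. Contrasts compared each population with the mean of the other 5, each pair of populations, dendritic with epithelial cells, ages within each population, ages in the mean of the 6 populations, and each population's change with age with that of the others. The fit was tested on simulated data. The members and the gene lists were chosen with earlier results of these data known. Population differences needed an adjusted p under 0.05 and at least 2-fold. Named list genes were at most the 4 largest called in a direction. The labels tie replicate numbers to no shared mouse, and over 45 pairs of populations of the same age the correlation of deviations lay between -0.068 and 0.418, and 17 exceeded 0.1. Of the pairs of populations, mTEClo with cTEC alone exceeded 0.1 at all 3 ages (0.145 to 0.164), so the numbers were not used as a block in the reported values. Coordinates and promoter windows came from RefSeq on GRCm38.p6. List genes with no probe set of their own were not analysed here. Alternatives were quantile scaling, no filter, other probe sets, array weights, a fold threshold, covariates, replicate blocks and fits without single arrays.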

Additional observations from a re-analysis of the deposited data

Results flagged for a closer look

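Within the 6 arrays of a population, the highest or lowest array stood far from the others in 7 of 60 tests. For 6 independent and alike arrays chance gives about 1 in 20. Here the 6 arrays span 3 ages and the genes share arrays, so the count cannot be set against that rate. Of the 7, 4 came from the first mTEChi array at 6 months, which had 6.65 for Il1b (5.67 to 6.01 on the others), 9.36 for Il1rn (9.82 to 10.01), 11.45 for Ptgs2 (10.36 to 10.73) and 9.89 for Ptger3 (9.04 to 9.33). Without that array Ptger3 in mTEChi exceeded cTEC by 0.94. The others were Tnf on the first fibroblast array at 3 months (6.12, others 6.36 to 6.42), Il12b on the first Sirpa- DC array at 6 months (10.57, others 9.62 to 9.95) and Il18 on the first cTEC array at 1 month (5.78, others 6.65 to 6.86).

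The change of Ptger3 with age differed between populations (adjusted p 5.97e-05, moderated F-test in limma). Between 6 months and 1 month its change exceeded that of the other 5 populations by 2.68 in Sirpa+ DC, where both later arrays were higher than both earlier ones, and was -1.86 against them in fibroblasts, where both were lower. The change of Il1a in fibroblasts was -0.81 against the other 5 populations, at signals under 5.66.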

How the results depend on the processing

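Of 141 population calls on members, 75 held in every alternative run and none reversed; 132 held without each array. Of 20 age results followed, 3 of them not called, 8 kept their side of the threshold without each array. Of 17 age calls, 3 held in every alternative and 4 reversed, all of them Il1rn on another probe set. The dim one gave 0.15 (6 months against 1 month) and 0.16 (6 against 3 months) in Sirpa+ DC and 0.07 and 0.08 in the mean of the 6 populations, and the bright one gave 0 for 6 against 3 months in Sirpa+ DC. A 4-fold threshold left 21 of 39 calls against the other 5 populations and 5 of 8 between dendritic and epithelial cells, and a 2-fold threshold left 0 of 5 age calls in the mean of the populations. Array weights gave 16 age calls within populations (9 as reported), 5 on a population's change against the others (3) and 3 in the F-test (1). Quantile scaling gave 2 in the F-test, as did the random replicate block, and the thymocyte covariate left 1 of 3 changes against the others. Fits without the 6 fibroblast arrays, chosen with the data known, gave 12 age calls against 7 in the other populations. The causes were not tested.

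Without single arrays the counts ranged from 39 to 41 against the other 5 populations, 91 to 95 between pairs (94 as reported), 8 to 8 between dendritic and epithelial cells, 4 to 14 for ages within populations, 4 to 7 in the mean, 2 to 5 for changes against the others and 1 to 4 in the F-test. The lowest age count, 4, was without the first Sirpa+ DC array at 6 months, and the highest, 14, without the first mTEChi array at 6 months. The replicate numbers were not taken to pair arrays, though mTEClo and cTEC, the one pair of populations that correlated over 0.1 at all 3 ages, may be paired; the fixed replicate block ended no call on a member there or elsewhere. With the fixed replicate block the counts were 39, 94, 8, 9, 6, 3 and 1, in the order of the ranges just given. Under quantile scaling the share of higher among genes called moved from 65.2% to 44.2% in Sirpa+ DC and from 40.7% to 30.3% in the mean, both for 6 months against 1 month, from 42.8% to 28.9% in fibroblasts for 6 against 3 months, and from 77.9% to 53.8% for the mTEChi change against the others. In fibroblasts, 6 against 3 months, the median of all genes shifted by -0.11 as deposited and -0.16 under quantile scaling. With 2 arrays a group, spread and dim signal limit what an age comparison can show.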
